A study of Mus musculus with 18 samples.

Results

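The genes described here are 10 members of the BCL2 family that promote or restrain cell death: Bcl2l10, Bcl2, Bcl2l1 and Mcl1, the pore formers Bax and Bak1, and the BH3-only genes Bmf, Bcl2l11, Bbc3 and Pmaip1. Members were the probe sets whose platform annotation names exactly 1 of these gene symbols. That rule found 28 of the 45101 probe sets of the array and 9 of the 18193 genes with such a probe set. Mcl1 had 6 probe sets, Bcl2 and Bcl2l11 had 5 each, Bcl2l1 had 4, Bmf had 3, Bak1 had 2, and Bcl2l10, Bbc3 and Pmaip1 had 1 each. Bax was not analysed here. A gene was tested where its brightest probe set exceeded the array's median in at least 3 of the 18 arrays. By that filter 8 members were tested among 12252 genes. The ninth, Pmaip1, lay above the median on 2 arrays and was tested only in a second fit over all probe sets.

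The samples are cumulus cells of female mice, the granulosa cells around the oocyte of an antral ovarian follicle. All groups had been cultured. The groups, of 3 arrays each, were intact cumulus-oocyte complexes (COC), complexes whose oocyte had been removed (OOX) and oocyte-free complexes cultured with oocytes (here called cocultures), each without and with estrogen (E2). No genotype or transgene is labelled in any group, and strain, age, estrogen dose and culture time are not given in the sources used here. Whether the 3 samples of 1 group were separate animals or cultures is not labelled. The p-values therefore rest on the spread among these arrays, part or all of which can be technical. Replicate 1 of the oocyte-free group with estrogen has a title that contradicts its source name and treatment label, which have no estrogen. The title was followed. The calls at the members' brightest probe sets that end when the source name is followed are given with the gene, and those of other genes with their list. The fit over all probe sets was not repeated with the source name followed. Its calls, those of Pmaip1 among them, therefore have no such check.

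Proteins of the BCL2 family decide whether the outer mitochondrial membrane is opened. BAX and BAK form the pores that release cytochrome c. BCL2, BCL-XL (the product of Bcl2l1) and MCL1 hold them and the BH3-only proteins in check, and BH3-only proteins such as BIM (Bcl2l11), PUMA (Bbc3), NOXA (Pmaip1) and BMF bind the pro-survival members or the pore formers to start the process. In the ovary this balance is known for its part in follicle atresia, in which granulosa cells die. The messenger RNA level of these genes is only 1 layer, since MCL1 is short-lived and BMF and BIM are also held at the cytoskeleton.

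The start regions of these genes are shown because the BH3-only genes are known targets of FOXO and p53 factors and because the members differed in their response. They come from the RefSeq promoter table of build GRCm38.p6, which held 15 start windows for 8 of the 10 members (Bax among them). Bcl2l10 and Pmaip1 were not matched. The 250 bases before each start were searched on both strands for the FOXO core GTAAACA, the E-box CACGTG, the consensus estrogen response element and the SMAD palindrome GTCTAGAC. No p53 site was searched for. No pair of these motifs overlaps by its letters in the matches found. Of 32851 windows of this length over all genes, 3.17% held the FOXO core, 6.02% the E-box, 0.0639% the estrogen element and 0.167% the SMAD palindrome. The first sequence below is the most upstream Bmf window (chr2:118549687-118549936, minus strand), printed because Bmf changed more than any other BH3-only member. The second is 1 of 2 windows of Bcl2l11 (chr2:128125788-128126037, plus strand) and the third a stretch before a start of Bbc3 (chr7:16310083-16310112, plus strand). Capitals mark the FOXO core, which reads TGTTTAC in Bbc3 because it lies on the other strand. All are written 5′ to 3′ on the strand of the gene.
Bmf: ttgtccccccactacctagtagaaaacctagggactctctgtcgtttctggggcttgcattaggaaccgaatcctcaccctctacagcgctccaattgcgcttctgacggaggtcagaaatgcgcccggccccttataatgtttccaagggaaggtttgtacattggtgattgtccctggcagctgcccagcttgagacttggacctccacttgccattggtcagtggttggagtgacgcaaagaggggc
Bcl2l11: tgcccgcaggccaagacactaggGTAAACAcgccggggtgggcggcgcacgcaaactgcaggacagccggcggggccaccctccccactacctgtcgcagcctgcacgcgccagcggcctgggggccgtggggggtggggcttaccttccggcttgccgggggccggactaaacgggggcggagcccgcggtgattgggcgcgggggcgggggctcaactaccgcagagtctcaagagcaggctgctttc
Bbc3: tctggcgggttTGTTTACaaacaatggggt
The FOXO core began 227 bases before the Bcl2l11 start and 167 bases before a Bbc3 start. E-boxes lay 64 bases before another Bbc3 start and 9 bases before the Bax start. None of the 4 motifs was found in the windows of Bmf, Bak1, Bcl2, Bcl2l1 or Mcl1. These matches describe letters in a window and are no evidence of binding, and a window without a match says only that these letters are not there.

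Values are log2 expression on the scale of the deposited table, and levels of different probe sets are not set against each other. Array medians lay between 5.51 and 5.71. The arrays fall by their names into 3 series of 13, 2 and 3 arrays. No series held both intact and oocyte-free complexes without estrogen, so removal without estrogen has no value within a series. A fit with the array series as a term gives that change only by taking the series shift as equal in all groups. Addition without estrogen could be read within the second series from 1 array a group, and estrogen in oocyte-free complexes within the third from 2 arrays without and 1 with it, in each case as values with no test. The median SD of a gene within a group ran from 0.150 to 0.274 and was largest in the oocyte-free group without estrogen. Replicate 3 of that group had the narrowest spread of values of all arrays, an interquartile range of 2.54 where the others reached 2.70 to 3.06. Calls at the members' brightest probe sets that use this array are also given without it. The fit over all probe sets was not repeated without it, so calls of other probe sets have no such value. Of 10 granulosa and cumulus markers all were tested, and the mean of the list on an array lay between 8.68 and 10.8. Of these markers 8 fell and 1, Foxl2, rose on oocyte removal without estrogen, and 6 fell with it. On adding oocytes 8 rose and 1 fell without estrogen and 7 rose and 0 fell with it, and estrogen raised 2 in intact complexes, 4 in oocyte-free complexes and 2 in cocultures. With the array of contradictory labels grouped by its source name, Inhba and Esr2 were called neither on removal nor on addition without estrogen. Slc38a3 was then called neither on removal nor on addition with estrogen, and Inha was not called on that addition. For estrogen, Slc38a3 was then not called in intact complexes or cocultures, and none of the 4 calls in oocyte-free complexes remained. The part of the marker shifts in the members' changes was not tested. A list of 16 oocyte markers was read beside them, of which 15 had a probe set and 5 were tested; no comparison called any of them. The oocyte list averaged 4.99 to 5.73 on the 18 arrays. Single markers of theca and stroma, endothelium and blood passed the filter, 1 from each list, and those lists averaged 5.12 to 5.58, 4.58 to 5.15 and 4.35 to 4.92. The blood marker Lyz2 was called once, at -0.73 ± 0.194 for estrogen in oocyte-free complexes (limma adjusted p = 0.0247). With the array of contradictory labels grouped by its source name it was -0.44 and not called (adjusted p = 0.751). With bulk RNA, fewer cells of a type and less RNA per cell cannot be told apart.

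**Figure D1:**
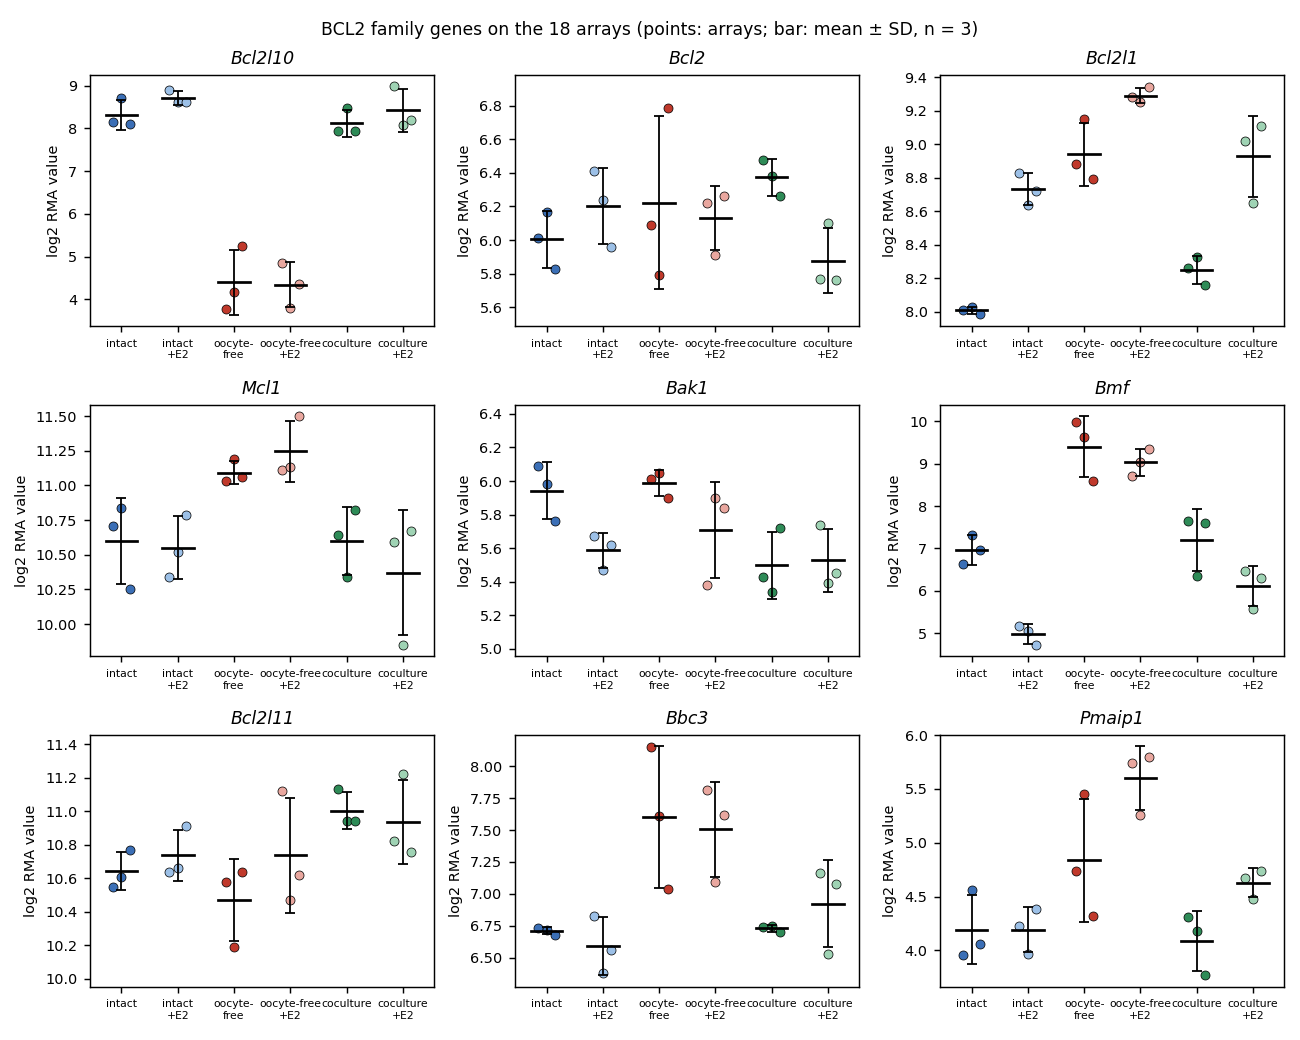
Log2 expression of the brightest probe set of each of the 9 genes (y axis) in the 6 groups (x axis); points are arrays, and bars are the mean ± SD of 3 arrays. The 6 oocyte-free arrays of Bcl2l10 lie between 3.78 and 5.25, below the 12 others at 7.93 to 8.99, while Bmf runs the other way.

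The first question was how the family responds when the oocyte is removed. Without estrogen, Bcl2l10 was lower and Bmf, Bcl2l1 and Bbc3 were higher in oocyte-free than in intact complexes. With estrogen the same 4 calls were made in the same directions. Mcl1 was called higher as well, through its brightest probe set, and no direction is given below for it as a gene. The counts and medians that follow take Mcl1 by that probe set. Of the 8 tested members, 3 rose and 1 fell without estrogen, where 18.0% of all tested genes were called higher and 20.7% lower. With estrogen 4 rose and 1 fell, where 12.9% of all genes were called higher and 17.3% lower. The median member change was 0.36 without and 0.34 with estrogen, against 0.013 and -0.047 over all tested genes. The members were chosen with earlier results of these data known, so the medians here and below are a description and no test. A change was called at a Benjamini-Hochberg adjusted p under 0.05 in limma's two-sided test.

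Among the multidomain members, Bcl2l10 changed most. It encodes a family member known from the ovary and the oocyte, for which protective and death-promoting activity have been described. In intact complexes the 3 arrays read 8.14, 8.71 and 8.09 without estrogen and 8.90, 8.62 and 8.61 with it. Oocyte-free complexes read 3.78, 4.18 and 5.25 without and 4.85, 3.80 and 4.37 with estrogen. Cocultures read 7.93, 8.48 and 7.93 without and 8.99, 8.08 and 8.19 with estrogen. Every oocyte-free array was at least as low as 5.25 and every array with oocytes at least as high as 7.93, so the groups did not overlap. The change on removal was -3.91 ± 0.339 without estrogen (SE, n = 3 per group; 15.0-fold; limma adjusted p = 9.43e-08) and -4.37 ± 0.339 with it (20.7-fold; adjusted p = 3.52e-08). Adding oocytes raised Bcl2l10 13.1-fold without estrogen (adjusted p = 2.26e-07) and 16.9-fold with it (adjusted p = 1.05e-07). Without oocyte-free replicate 3 the change on addition without estrogen was 4.13 (adjusted p = 6.21e-08), and within the second array series 8.48 stood against 5.25.

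On the oocyte-free arrays Bcl2l10 stood between the percentiles 16.0 and 39.7 of all probe sets of the array, and 3 of these 6 readings fell in the lowest 25 percent. In the other groups it stood between 81.8 and 89.9. The folds against oocyte-free complexes therefore set bright readings against dim ones, for which the table gives no detection call. Bcl2l10 is often used as an oocyte gene, and its level fell where oocytes were removed, so the oocyte marker list is given beside it. The 15 markers changed by -0.20 to 0.40 on removal without estrogen and by -0.75 to 0.34 with estrogen. Gdf9, the oocyte growth factor gene, changed by 0.07 ± 0.149 (adjusted p = 0.761) without and by -0.01 ± 0.149 (adjusted p = 0.971) with estrogen. The remaining tested markers Dppa3, Figla, Ooep and Zar1 were not called either. No oocyte marker had a group mean above 7.02. With the array series as a term Bcl2l10 changed by -4.04 on removal without estrogen (adjusted p = 3.54e-06), and within the first series by -4.39 with estrogen (adjusted p = 1.9e-07). Without oocyte-free replicate 3 the change without estrogen was -4.33 (adjusted p = 3.03e-08).

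**Figure D2:**
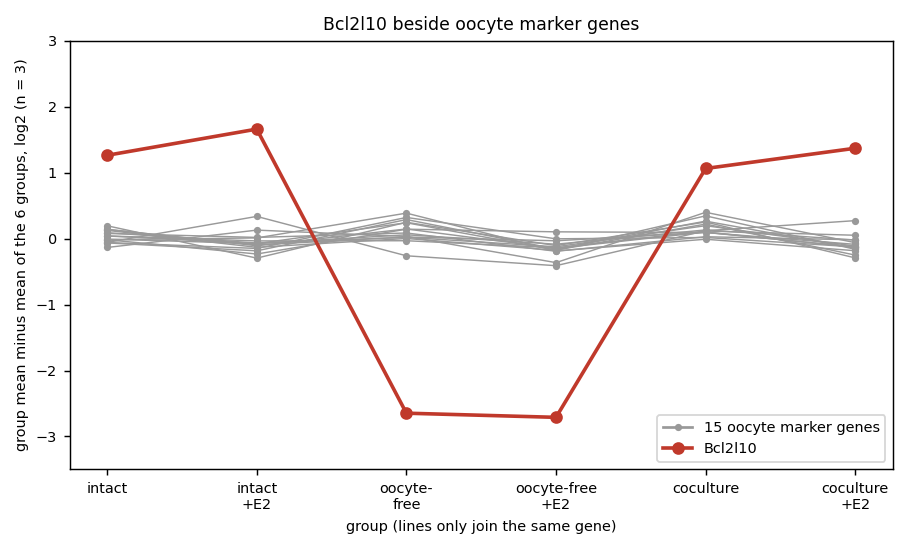
Group means of Bcl2l10 (red) and 15 oocyte marker genes (grey), each minus its own mean over the 6 groups, in log2 units (y axis) by group (x axis; n = 3 arrays per group). Bcl2l10 drops in both oocyte-free groups, by 3.91 and 4.37 against intact complexes, while the markers change by at most 0.75 in size.

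Bcl2l1 encodes BCL-XL, a pro-survival protein of the outer mitochondrial membrane. Its brightest probe set read 8.01, 8.03 and 7.99 in intact complexes cultured without estrogen, and 8.88, 9.15 and 8.79 in oocyte-free complexes. With estrogen the readings were 8.83, 8.64 and 8.72 in intact and 9.28, 9.25 and 9.34 in oocyte-free complexes. All oocyte-free arrays lay above the intact arrays of the same estrogen condition. The rise was 0.93 ± 0.139 without estrogen (1.91-fold; limma adjusted p = 4.6e-05) and 0.56 ± 0.139 with it (1.47-fold; adjusted p = 0.0051). Without oocyte-free replicate 3 the rise without estrogen was 1.01 (adjusted p = 4.44e-05). The other 3 Bcl2l1 probe sets were above the median on 0 arrays. When they were averaged with the bright one, the rise with estrogen was 0.27 and no longer called (adjusted p = 0.0893).

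Mcl1 encodes a short-lived pro-survival protein, and its 6 probe sets did not give 1 direction. The brightest, 1437527_x_at, read 10.71, 10.84 and 10.25 in intact and 11.03, 11.19 and 11.06 in oocyte-free complexes without estrogen. With estrogen it read 10.34, 10.52 and 10.79 in intact and 11.11, 11.13 and 11.50 in oocyte-free complexes. These groups did not overlap, and the change was 0.49 ± 0.216 without (adjusted p = 0.081, not called) and 0.70 ± 0.216 with estrogen (1.62-fold; adjusted p = 0.0203). Without oocyte-free replicate 3 the change without estrogen was 0.51 (adjusted p = 0.11). The call with estrogen ended when all 6 probe sets were averaged (0.36, adjusted p = 0.138), within the first array series (0.57, adjusted p = 0.0834), and without intact replicate 1 with estrogen (0.59, adjusted p = 0.0927), intact replicate 2 with estrogen (0.68, adjusted p = 0.0549) or oocyte-free replicate 3 with estrogen (0.57, adjusted p = 0.092).

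A different Mcl1 probe set, 1416881_at, read 9.86, 10.38 and 9.97 in intact and 9.44, 9.08 and 8.96 in oocyte-free complexes without estrogen. All 3 oocyte-free arrays lay below the intact ones. In the fit over all 45037 probe sets this was a fall of 0.91 ± 0.192 on the log2 scale (1.88-fold; limma adjusted p = 0.00279). With estrogen it changed by 0.14 ± 0.192 on removal (adjusted p = 0.758). The probe sets 1416880_at and 1448503_at were not called in any of the 4 comparisons of removal and addition. An _x_at name marks probes that can match other transcripts, and the 3 such Mcl1 sets changed upward by 0.31 to 0.49 on removal without estrogen and by 0.67 to 0.70 with it. No direction is given for Mcl1 as a gene, since leaving out the _x_at sets turned its sign without estrogen. With estrogen the sign stayed, but the brightest remaining set, 1416881_at, was not called on removal.

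Bcl2 itself, the founding pro-survival member, was not called at its brightest probe set, 1457687_at. Its change on removal was 0.22 ± 0.209 without estrogen (95% interval -0.22 to 0.66; adjusted p = 0.441) and -0.07 ± 0.209 with it (-0.51 to 0.37; adjusted p = 0.835). Of its other probe sets, 1440770_at was called higher on removal with estrogen by 1.38 ± 0.412 (adjusted p = 0.0327) and 1443837_x_at by 0.84 ± 0.179 (adjusted p = 0.00396). The former lay above the median on 9 arrays and the latter on 0 arrays.

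Bak1, the pore former, read 6.09, 5.98 and 5.76 in intact and 6.01, 6.05 and 5.90 in oocyte-free complexes without estrogen, and these ranges overlapped. Its change was 0.04 ± 0.161 (95% interval -0.30 to 0.38; adjusted p = 0.859) without and 0.12 ± 0.161 (-0.22 to 0.46; adjusted p = 0.635) with estrogen. The dim second probe set, 1425716_s_at, changed by -0.54 ± 0.183 on removal without estrogen (adjusted p = 0.0471), with overlapping groups.

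Bmf had the largest change among the BH3-only genes. Its product is released from the cytoskeleton to bind pro-survival proteins. The brightest Bmf probe set, 1454880_s_at, read 6.62, 7.31 and 6.96 in intact complexes cultured without estrogen, and 5.17, 5.05 and 4.72 with it. In oocyte-free complexes it read 9.99, 9.62 and 8.60 without and 8.72, 9.03 and 9.35 with estrogen. Cocultures read 7.65, 6.34 and 7.60 without and 6.47, 5.57 and 6.29 with estrogen. The 6 oocyte-free arrays were the highest of the 18, and the 3 intact arrays with estrogen were the lowest. Removal raised Bmf by 2.44 ± 0.363 without estrogen (5.43-fold; limma adjusted p = 4.38e-05) and by 4.05 ± 0.363 with it (16.6-fold; adjusted p = 1.8e-07).

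Within the first array series the Bmf rise with estrogen was 3.90 (adjusted p = 1.04e-07), and with the series as a term the rise without estrogen was 2.61 (adjusted p = 3.69e-05). With oocyte-free replicate 3 omitted, it was 2.84 (adjusted p = 1.06e-05). Bmf stood between the percentiles 87.7 and 94.7 of the oocyte-free arrays and between 33.3 and 42.8 of the intact arrays with estrogen. The other 2 Bmf probe sets were above the median on 0 arrays and were not called in any comparison. Averaging all 3 left the Bmf rise called at 0.77 without and 1.46 with estrogen.

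Bbc3 encodes PUMA, a BH3-only protein that binds all the main pro-survival members. It read 6.73, 6.72 and 6.68 in intact and 8.15, 7.61 and 7.04 in oocyte-free complexes without estrogen. With estrogen it read 6.83, 6.38 and 6.56 in intact and 7.81, 7.09 and 7.62 in oocyte-free complexes. The groups did not overlap in either condition. Bbc3 rose by 0.89 ± 0.241 without estrogen (1.85-fold; limma adjusted p = 0.00717) and by 0.92 ± 0.241 with it (1.89-fold; adjusted p = 0.00766). Once the array series was fitted, the change without estrogen was 0.69 and not called (adjusted p = 0.126, over a range of 0.000235 to 0.126 for its alternatives). When oocyte-free replicate 3 was omitted, which had the lowest Bbc3 reading of its group, it was 1.17 (adjusted p = 0.000629).

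Pmaip1, which encodes the MCL1-binding BH3-only protein NOXA, was read near the bottom of the scale. Its probe set gave 3.96, 4.56 and 4.06 in intact and 4.74, 5.45 and 4.32 in oocyte-free complexes without estrogen, and these ranges overlapped. With estrogen it gave 4.23, 3.97 and 4.38 in intact and 5.74, 5.26 and 5.80 in oocyte-free complexes, with no overlap. In the probe-set fit the change was 0.64 ± 0.249 without estrogen (adjusted p = 0.0841, not called) and a rise of 1.41 ± 0.249 with it (2.65-fold; limma adjusted p = 0.000918). In that fit 14.7% of all probe sets were called on removal with estrogen. The fit was not repeated with the array of contradictory labels, which read 5.74 for Pmaip1, grouped by its source name. The array percentiles of Pmaip1 lay between 15.9 and 54.8.

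Bcl2l11 encodes BIM, the BH3-only activator of BAX and BAK. It read 10.55, 10.61 and 10.77 in intact and 10.58, 10.19 and 10.64 in oocyte-free complexes without estrogen, so the ranges overlapped. Its change on removal was -0.17 ± 0.181 without estrogen (95% interval -0.55 to 0.21; adjusted p = 0.485) and 0.00 ± 0.181 with it (-0.38 to 0.38; adjusted p = 1). None of its 5 probe sets was called on removal. Among the BH3-only members Bmf and Bbc3 were thus called in both conditions, Pmaip1 with estrogen and Bcl2l11 in neither.

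**Figure D3:**
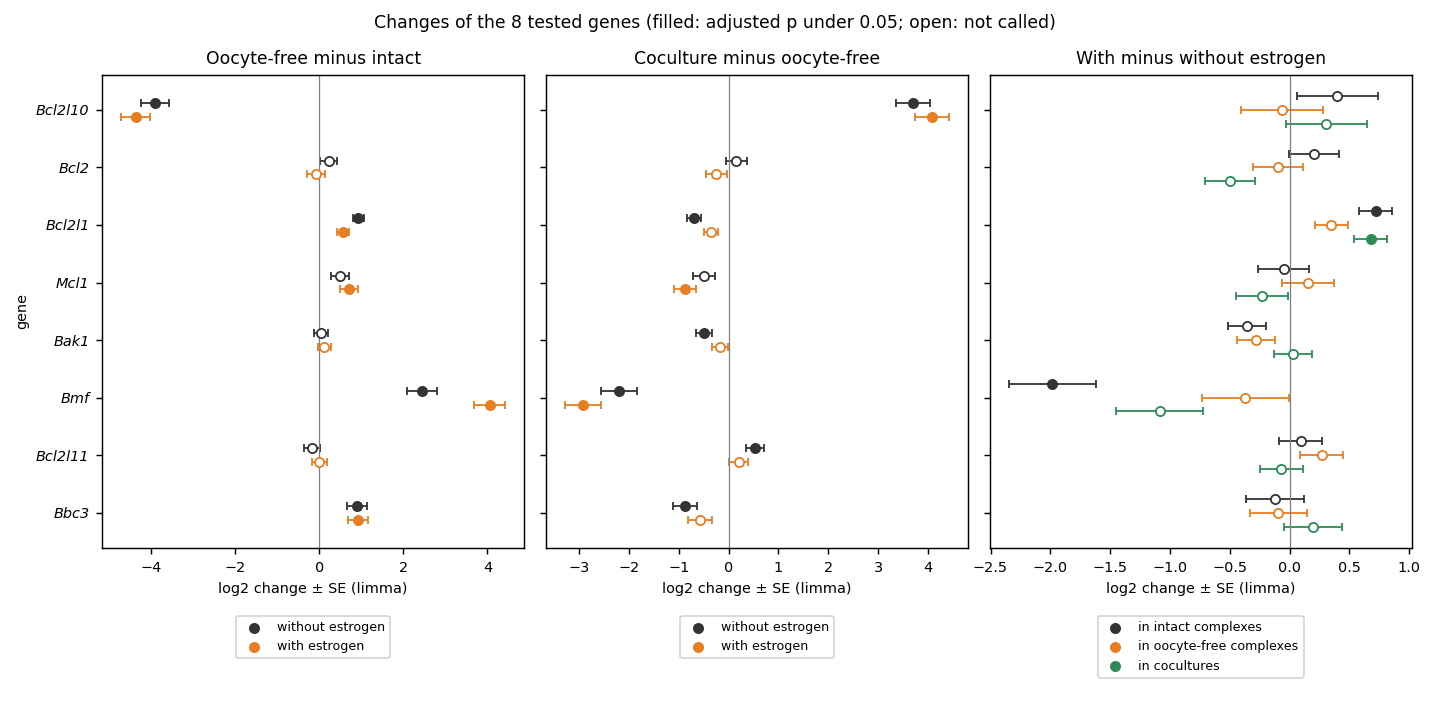
Log2 change ± SE (x axis; limma, n = 3 arrays per group) of the 8 tested genes (y axis) for oocyte removal, added oocytes and estrogen; filled points passed an adjusted p of 0.05. Bcl2l10 and Bmf lie farthest from 0 and on opposite sides for removal and addition. Bcl2l1 is the only tested member called for estrogen both in intact complexes and in cocultures, and Bmf is called in intact complexes.

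The second question was how far added oocytes change these genes in oocyte-free complexes. This comparison uses the same oocyte-free arrays as the first, so an opposite sign is in part built in, and the values are given side by side. Without estrogen, Bcl2l10 and Bcl2l11 rose and Bmf, Bcl2l1, Bbc3 and Bak1 fell. With estrogen, Bcl2l10 rose, and Bmf and the brightest Mcl1 probe set fell. Of 8 members, 2 rose and 4 fell without estrogen, where 19.8% of all tested genes were called higher and 13.4% lower. With estrogen 1 rose and 2 fell, where 14.2% of all genes were called higher and 10.4% lower. The median member change was -0.49 without and -0.31 with estrogen, against 0.017 and 0.027 over all tested genes.

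Bmf fell by 2.21 ± 0.363 without estrogen (4.62-fold; limma adjusted p = 0.000148) and by 2.92 ± 0.363 with it (7.59-fold; adjusted p = 1.07e-05). None of the 6 coculture arrays reached the lowest oocyte-free array of its estrogen condition. Fitted with the array series the change without estrogen was -2.01 (adjusted p = 0.000107), and without oocyte-free replicate 3 it was -2.61 (adjusted p = 3.14e-05). In the second array series 6.34 in the coculture stood against 8.60. Within the first series it was -2.77 with estrogen (adjusted p = 2.87e-06).

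Bcl2l1 read 8.26, 8.33 and 8.16 in cocultures without estrogen and 9.02, 8.65 and 9.11 with it. It fell by 0.69 ± 0.139 against oocyte-free complexes without estrogen (1.61-fold; limma adjusted p = 0.000934), or by 0.77 without oocyte-free replicate 3 (adjusted p = 0.000626), and the arrays of the second series differed by -0.46. With estrogen the change was -0.36 ± 0.139 and was not called (adjusted p = 0.067), although the groups did not overlap. That change was called after a second quantile normalization (-0.40, adjusted p = 0.0426), with arrays centred on their medians (-0.45, adjusted p = 0.0339) and without oocyte-free replicate 3 without estrogen (adjusted p = 0.0434).

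Bbc3 read 6.74, 6.75 and 6.70 in cocultures without estrogen and 7.16, 6.53 and 7.08 with it. The former arrays all lay below the oocyte-free ones, while the latter overlapped them. It fell by 0.87 ± 0.241 without estrogen (1.83-fold; limma adjusted p = 0.00993), and changed by -0.58 ± 0.241 with it (adjusted p = 0.0914, not called). Fitting the array series ended the first call (-0.60, adjusted p = 0.124), as did leaving out oocyte-free replicate 1 without estrogen (-0.60, adjusted p = 0.0628). With oocyte-free replicate 3 omitted, the change was -1.15 (adjusted p = 0.000878), while that array and the coculture of the second series differed by -0.29. The change with estrogen was called after both rescalings (-0.63 and -0.67), with array weights (-0.59) and without oocyte-free replicate 1 (adjusted p = 0.0495) or replicate 3 without estrogen (adjusted p = 0.0387), or oocyte-free replicate 2 with estrogen (-0.79, adjusted p = 0.0328).

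The brightest Mcl1 probe set read 10.64, 10.34 and 10.82 in cocultures without estrogen and 10.59, 9.85 and 10.67 with it, below all oocyte-free arrays in each case. Its change was -0.49 ± 0.216 without estrogen (adjusted p = 0.0903, not called) and a fall of 0.88 ± 0.216 with it (1.84-fold; limma adjusted p = 0.00604). Without estrogen 1416881_at ran the other way here too, with a rise of 0.65 ± 0.192 (adjusted p = 0.0294). With estrogen its change was -0.22 ± 0.192 (adjusted p = 0.604, not called), of the same sign as that of the brightest set. The fall with estrogen was lost when all probe sets were averaged (-0.46, adjusted p = 0.0625) and without the _x_at sets (-0.22, adjusted p = 0.481). When oocyte-free replicate 3 was omitted, the brightest set changed by -0.51 on addition without estrogen (adjusted p = 0.119), and within the second series by -0.72.

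Bcl2l11 read 11.13, 10.94 and 10.94 in cocultures without estrogen, above the 3 oocyte-free arrays. It rose by 0.53 ± 0.181 (1.45-fold; limma adjusted p = 0.0304). The call was lost when the array series was fitted (0.38, adjusted p = 0.243), in a fit of the compared groups alone (adjusted p = 0.0831), after a second quantile normalization (0.43, adjusted p = 0.0791), with arrays centred on their medians (0.42, adjusted p = 0.0917), and with the doubtful array grouped by its source name (0.37, adjusted p = 0.146). It also ended without coculture replicate 1 (0.47, adjusted p = 0.102), coculture replicate 3 (adjusted p = 0.0558) or oocyte-free replicate 2 (0.39, adjusted p = 0.143), all without estrogen. With oocyte-free replicate 3 omitted, it was 0.62 (adjusted p = 0.0217), and within the second series 0.30. With estrogen the change was 0.20 ± 0.181 (95% interval -0.18 to 0.58; adjusted p = 0.485).

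Bak1 read 5.43, 5.34 and 5.72 in cocultures without estrogen, below the oocyte-free arrays. It fell by 0.49 ± 0.161 (1.40-fold; limma adjusted p = 0.0265). This call did not hold when the array series was fitted (-0.42, adjusted p = 0.133), in a fit of the compared groups alone (adjusted p = 0.092), with the doubtful array grouped by its source name (-0.34, adjusted p = 0.149), and without coculture replicates 1 or 2 or oocyte-free replicates 1 or 2 (adjusted p from 0.0608 to 0.0943). When oocyte-free replicate 3 was omitted, it was -0.53 (adjusted p = 0.0271), and within the second series -0.56. With estrogen Bak1 changed by -0.18 ± 0.161 (-0.52 to 0.16; adjusted p = 0.473).

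Pmaip1 read 4.31, 4.18 and 3.77 in cocultures without estrogen and 4.67, 4.48 and 4.74 with it, in each case below the oocyte-free arrays. It fell by 0.97 ± 0.249 with estrogen (1.96-fold; limma adjusted p = 0.0174 in the probe-set fit), while without estrogen the change was -0.75 ± 0.249 and lay at the threshold (adjusted p = 0.05, not called). Of all probe sets, 11.2% were called on adding oocytes with estrogen. Bcl2 was not called at any of its 5 probe sets on adding oocytes, with a change of 0.15 ± 0.209 without and -0.25 ± 0.209 with estrogen at the brightest. Within the second series the Bcl2 arrays differed by -0.41.

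Cocultures were then set directly against intact complexes. No member was called, and of all tested genes 0.00816% were called without estrogen (1 gene) and 0% with it (0 genes). At an unadjusted p under 0.05 limma had 733 and 346 genes. Bcl2l10 changed by -0.20 ± 0.339 without estrogen (95% interval -0.91 to 0.51) and by -0.29 ± 0.339 with it (-1.0 to 0.42). The largest member difference was that of Bmf with estrogen. Its cocultures, at 6.47, 5.57 and 6.29, all lay above the intact arrays at 5.17, 5.05 and 4.72, a change of 1.13 ± 0.363 (95% interval 0.36 to 1.90; unadjusted p = 0.00625, limma adjusted p = 1). With array weights it was called (1.27, adjusted p = 0.0213; from 0.0213 to 1 over its alternatives). Without estrogen Bmf changed by 0.23 ± 0.363 (-0.53 to 1.00).

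The third question was what estrogen does to these genes, with and without oocytes. In intact complexes Bcl2l1 rose and Bmf fell. In cocultures Bcl2l1 rose, and in oocyte-free complexes no member was called. Thus 1 of 8 members rose and 1 fell in intact complexes, where 3.45% of all tested genes were called higher and 2.33% lower. In cocultures 1 rose and 0 fell, where 2.32% were called higher and 2.33% lower. In oocyte-free complexes 0 members were called, where 9.64% of all genes were called in either direction.

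Bcl2l1 was higher on all 3 estrogen arrays than on the 3 without it in each culture type. It rose by 0.72 ± 0.139 in intact complexes (1.65-fold; limma adjusted p = 0.00357) and by 0.68 ± 0.139 in cocultures (1.60-fold; adjusted p = 0.00593). In oocyte-free complexes the change was 0.35 ± 0.139 (95% interval 0.06 to 0.64; adjusted p = 0.121, not called), and within the third array series it was 0.33. Both calls ended when the dim Bcl2l1 probe sets were averaged in (0.093, adjusted p = 0.705, and 0.10, adjusted p = 0.696). The coculture call also ended without coculture replicate 3 with estrogen (0.59, adjusted p = 0.0511). Within the first array series the changes were 0.72 (adjusted p = 0.00238) and 0.72 (adjusted p = 0.00702).

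Bmf fell in intact complexes by 1.98 ± 0.363 (3.95-fold; limma adjusted p = 0.00226), from readings of 6.62 to 7.31 to readings of 4.72 to 5.17. In cocultures it changed by -1.09 ± 0.363 (adjusted p = 0.114, not called), and coculture replicate 2 without estrogen, at 6.34, lay within the range of the estrogen arrays. Without that array the change was -1.52 (adjusted p = 0.0164). It was the only coculture of the second array series, and within the first series the change was -1.52 too (adjusted p = 0.00223), while with the series as a term it was -1.45 (adjusted p = 0.00141). Centring arrays on their medians (-1.15, adjusted p = 0.0333) and array weights (-1.28, adjusted p = 0.000736) also gave a call. In oocyte-free complexes the Bmf change was -0.37 ± 0.363 (95% interval -1.14 to 0.40; adjusted p = 0.528), and within the third series -0.46.

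Whether estrogen changed the response to the oocyte was tested by an interaction term. No member was called, where 3.21% of all genes were called for removal and 2.78% for addition. The Bmf rise on removal was larger with estrogen by 1.61 ± 0.513 (95% interval 0.53 to 2.70; unadjusted p = 0.00586, limma adjusted p = 0.107). It was called with arrays centred on their medians (1.65, adjusted p = 0.0388) and with array weights (1.25, adjusted p = 0.0443). For Bcl2l1 the interaction with removal was -0.37 ± 0.197 (adjusted p = 0.432), and for Bcl2l10 it was -0.46 ± 0.479 (adjusted p = 0.758).

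Other members did not pass for estrogen at their brightest probe sets. Bcl2 changed by -0.50 ± 0.209 in cocultures (adjusted p = 0.24), from 6.48, 6.38 and 6.26 to 5.77, 6.10 and 5.76, with no overlap, and was called with array weights (-0.52, adjusted p = 0.0198). Bak1 changed by -0.36 ± 0.161 in intact complexes (adjusted p = 0.242), also with no overlap. Pmaip1 changed by 0.76 ± 0.249 in oocyte-free complexes (adjusted p = 0.0958) and by 0.54 ± 0.249 in cocultures (adjusted p = 0.391). Among single probe sets, 4.27% of which were called for estrogen in oocyte-free complexes, Mcl1 1416881_at rose there by 0.94 ± 0.192 (limma adjusted p = 0.0116) and Bcl2l11 1426334_a_at fell by 0.73 ± 0.167 (adjusted p = 0.021). With the doubtful array grouped by its source name, 0 of all tested genes were called for estrogen in oocyte-free complexes.

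**Figure D4:**
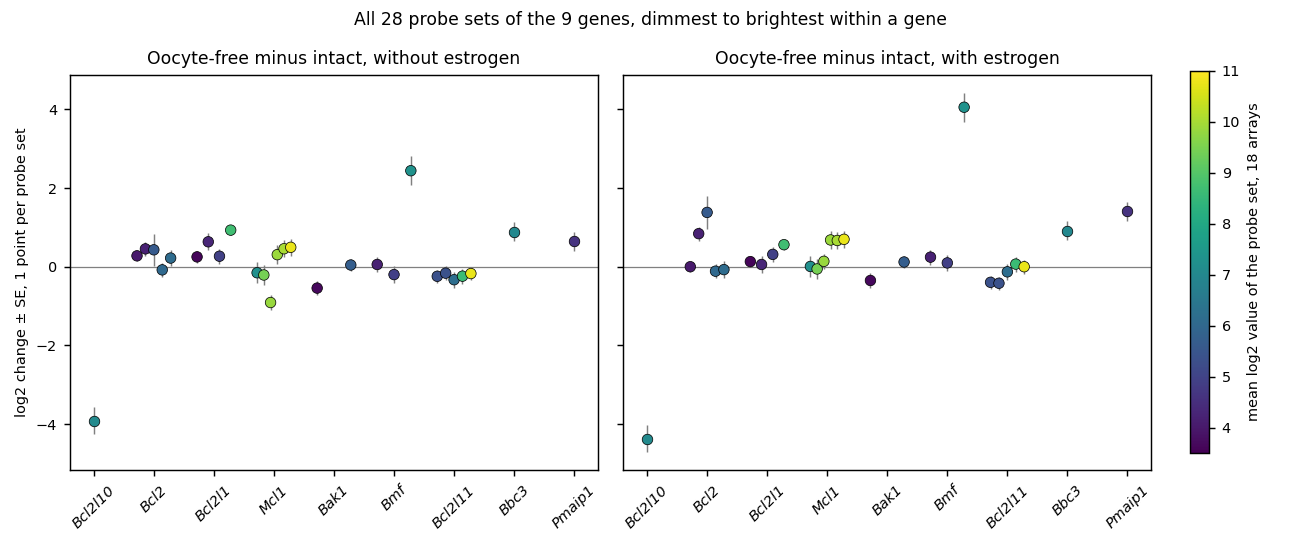
Log2 change ± SE on oocyte removal (y axis; limma over all probe sets, n = 3 arrays per group) for each of the 28 probe sets, by gene (x axis) and coloured by mean log2 value; the left panel is without and the right with estrogen. The Mcl1 probe sets spread from -0.91 to 0.49 without estrogen, and of the 3 Bmf probe sets only the brightest moves far from 0.

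The rest of the family was read from a list of 15 other BCL2 family genes, of which 10 were tested. On removal without estrogen 2 rose and 2 fell (list median 0.050), and with estrogen 1 rose and 2 fell (-0.14). For this and the following lists the shares over all tested genes were those given above: 18.0% higher and 20.7% lower on removal without and 12.9% and 17.3% with estrogen, and 19.8% higher and 13.4% lower on addition without and 14.2% and 10.4% with it. Bcl2l2, which encodes the pro-survival protein BCL-W, rose 3.01-fold without (limma adjusted p = 0.000122) and 2.24-fold with estrogen (adjusted p = 0.00251). Bad, a BH3-only gene controlled by survival kinases, rose by 0.76 ± 0.176 without estrogen (adjusted p = 0.00245), a call that ended with the doubtful array grouped by its source name (0.55, adjusted p = 0.0547). Bok, a pore-forming relative of BAX and BAK, fell 3.80-fold without (adjusted p = 3.75e-05) and 2.93-fold with estrogen (adjusted p = 0.00041). Bnip3, a mitophagy receptor, fell 2.80-fold and 2.78-fold (adjusted p = 3.63e-05 and 4.94e-05).

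On adding oocytes 2 of these 10 rose and 2 fell without estrogen, and 2 rose and 1 fell with it. Bnip3 rose 3.66-fold and 2.97-fold (limma adjusted p = 3.69e-06 and 3.31e-05), and Bok rose 3.53-fold and 2.49-fold (adjusted p = 8.19e-05 and 0.00214). Bcl2l2 fell 2.64-fold and 1.82-fold (adjusted p = 0.000501 and 0.0227), and Bad fell by 0.84 ± 0.176 without estrogen (adjusted p = 0.00128). Estrogen raised Bnip3 in intact complexes by 0.89 ± 0.217 (adjusted p = 0.019) and in oocyte-free complexes by 0.90 ± 0.217 (adjusted p = 0.014), where Bad fell by 0.77 ± 0.176 (adjusted p = 0.00993). With the doubtful array grouped by its source name none of these estrogen calls held (Bnip3 in intact complexes 0.89, adjusted p = 0.113).

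Downstream of the pores, 10 of 12 apoptosome and caspase genes were tested. On removal 1 rose and 3 fell without estrogen (list median -0.035), and 2 rose and 3 fell with it (-0.18). The effector caspase gene Casp6 rose 2.53-fold and 2.24-fold (limma adjusted p = 0.000114 and 0.000536). Cycs, which encodes cytochrome c, fell 2.30-fold and 1.77-fold (adjusted p = 0.000827 and 0.0156). Endog, which encodes a mitochondrial endonuclease, fell 2.65-fold and 4.08-fold (adjusted p = 0.00111 and 4.64e-05). Diablo, which encodes the antagonist SMAC of caspase inhibitors, fell 1.59-fold and 1.64-fold (adjusted p = 0.00158 and 0.00129). Htra2, which encodes a mitochondrial protease, rose with estrogen by 0.63 ± 0.193 (adjusted p = 0.0197). On adding oocytes 4 of the 10 rose and 1 fell without estrogen, and 3 rose and 2 fell with it, with Endog 1.87-fold and 3.36-fold higher, Cycs 1.86-fold and 1.64-fold higher, Diablo 1.77-fold and 1.79-fold higher, and Casp6 2.15-fold and 2.19-fold lower. With oocyte-free replicate 3 omitted, 2 rose and 2 fell on addition without estrogen, and Endog was not called (0.47, adjusted p = 0.136). With the doubtful array grouped by its source name Cycs was not called on removal (-0.75, adjusted p = 0.0567) or addition with estrogen (0.63, adjusted p = 0.121), nor Htra2 on addition with it (-0.55, adjusted p = 0.0945).

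Of 6 tested inhibitors of apoptosis, 2 rose and 2 fell on removal without estrogen and 0 rose and 1 fell with it. Birc5, which encodes survivin and also serves mitosis, fell 7.24-fold and 3.95-fold (limma adjusted p = 4.33e-09 and 3.72e-07). Birc6 fell by 1.58 ± 0.427 (adjusted p = 0.00713), and Cflar, which encodes the caspase-8 inhibitor cFLIP, and Birc2 rose by 0.63 ± 0.164 and 0.62 ± 0.206 (adjusted p = 0.00532 and 0.0233), all without estrogen. On adding oocytes Birc5 rose 5.66-fold and 2.73-fold, and no other gene of the list was called. Of 5 outer membrane channel and BH3 partner genes, Vdac2, whose product binds BAK, rose by 0.44 ± 0.165 (adjusted p = 0.0417) and Vdac3 fell by 0.63 ± 0.176 (adjusted p = 0.0085) on removal without estrogen, and 0 were called with it. On addition 1 of the 5, Vdac3, rose without estrogen (0.71 ± 0.176, adjusted p = 0.00489) and 0 were called with it. Vdac2 was not called on removal without oocyte-free replicate 3 (0.43, adjusted p = 0.0713). With the doubtful array grouped by its source name the removal calls of Vdac3 (-0.47, adjusted p = 0.0636) and Birc2 (0.52, adjusted p = 0.0561) ended, The dynein light chains Dynll1 and Dynll2, partners of BIM and BMF, were not called in these comparisons. Of 3 genes that control MCL1 turnover, 0 were called on removal, and Fbxw7 fell by 0.45 ± 0.160 on adding oocytes with estrogen (adjusted p = 0.0498; with the doubtful array regrouped so, 0.0917).

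Genes of the p53 and FOXO pathways, which are known to act on BH3-only genes, were counted for their own changes. Of 9 tested p53 target genes 6 rose and 0 fell on removal without estrogen (list median 0.77), and 5 rose and 0 fell with it (0.79). The cell cycle inhibitor gene Cdkn1a rose 3.45-fold and 3.28-fold (limma adjusted p = 7.6e-07 and 1.59e-06). Zmat3, which encodes an RNA-binding protein, rose 3.33-fold and 2.34-fold (adjusted p = 1.89e-05 and 0.000722), and Trp53inp1 2.96-fold and 3.03-fold (adjusted p = 3.09e-07 and 3.02e-07). Phlda3, which encodes a repressor of AKT, rose by 0.91 ± 0.179 and 0.88 ± 0.179 (adjusted p = 0.000617 and 0.00106). On adding oocytes 0 of the 9 rose and 5 fell in each condition (medians -0.85 and -0.51), with Cdkn1a 3.02-fold and 2.47-fold, Trp53inp1 2.33-fold and 2.50-fold, and Zmat3 2.14-fold and 1.93-fold lower. With the doubtful array grouped by its source name Phlda3 was not called on addition with estrogen (-0.43, adjusted p = 0.174). Ccng1 was then called lower on addition without it (-0.52, adjusted p = 0.0366). Bbc3 and Pmaip1, which are among the members known as p53 targets, were not on that list.

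Of 7 FOXO genes and targets, 6 rose and 1 fell on removal without estrogen (median 0.71), and 5 rose and 0 fell with it (0.75). Cited2, a transcriptional coregulator gene, rose 9.78-fold and 8.26-fold (limma adjusted p = 1.79e-09 and 5.63e-09). Klf6, a transcription factor gene, rose 3.20-fold and 6.36-fold (adjusted p = 2.36e-05 and 1.5e-07), and Irs2, an adaptor of the insulin receptor, 1.56-fold and 3.24-fold (adjusted p = 0.0264 and 1.2e-05). The factor gene Foxo3 rose by 0.71 ± 0.171 and 0.49 ± 0.171 (adjusted p = 0.00317 and 0.0388), Foxo4 rose by 0.75 ± 0.178 with estrogen (adjusted p = 0.00379), and Txnip, which encodes a thioredoxin inhibitor, rose by 0.71 ± 0.211 without it (adjusted p = 0.0131). The 1 that fell was Foxo1, by 0.54 ± 0.133 (adjusted p = 0.00393), named after its value was seen. On adding oocytes 1 of the 7 rose (Foxo1, by 0.64 ± 0.133) and 5 fell without estrogen, and 0 rose and 4 fell with it. Cited2 fell 5.86-fold and 11.4-fold, Klf6 2.96-fold and 9.30-fold, and Irs2 1.55-fold and 3.19-fold. With the doubtful array grouped by its source name Foxo1 was not called on removal (-0.35, adjusted p = 0.132) or addition (0.46, adjusted p = 0.0607) without estrogen, nor Foxo3 on removal with it (0.39, adjusted p = 0.216). A change in messenger RNA of these genes is no measure of p53 or FOXO activity.

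Of 4 genes listed for stress of the endoplasmic reticulum, 1 rose and 2 fell on removal in each condition. Ddit3, which encodes the factor CHOP, rose 2.13-fold and 1.69-fold (limma adjusted p = 8.34e-05 and 0.0029). Chac1, a glutathione-degrading enzyme gene, fell 7.78-fold and 7.89-fold (adjusted p = 1.42e-05 and 1.67e-05), and Trib3, a pseudokinase gene, fell 2.30-fold and 3.51-fold (adjusted p = 0.000108 and 1.6e-06). On adding oocytes 2 of the 4 rose and 1 fell in each condition: Chac1 rose 3.84-fold and 3.46-fold, Trib3 rose 1.49-fold and 2.52-fold, and Ddit3 fell 2.19-fold and 1.85-fold. The Trib3 rise without estrogen was lost without oocyte-free replicate 3 (0.53, adjusted p = 0.0727) and with the doubtful array grouped by its source name (0.49, adjusted p = 0.0507).

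For estrogen the shares over all tested genes were 3.45% higher and 2.33% lower in intact complexes, 9.64% in either direction in oocyte-free complexes, and 2.32% higher and 2.33% lower in cocultures. With the doubtful array grouped by its source name, 0 of all genes and so none of the following calls in oocyte-free complexes remained. Among the 9 p53 targets estrogen raised 2 in intact complexes, 4 in oocyte-free complexes and 2 in cocultures, and lowered 0. Perp, which encodes a membrane protein of junctions, rose 4.29-fold, 2.76-fold and 4.23-fold in turn (limma adjusted p = 0.00145, 0.0172 and 0.00173), and Ccng1, which encodes cyclin G1, 1.78-fold, 1.52-fold and 1.84-fold (adjusted p = 0.00663, 0.0371 and 0.00426). When oocyte-free replicate 3 was omitted, neither was called in oocyte-free complexes (adjusted p = 0.064 and 0.061), where 2 of the 9 then rose. The other 2 that rose in oocyte-free complexes were Sesn2 by 0.76 ± 0.202 and Trp53inp1 by 0.55 ± 0.150 (adjusted p = 0.0246 and 0.0284).

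Of the 7 FOXO genes and targets, estrogen raised 1 and lowered 1 in intact complexes, raised 2 and lowered 1 in oocyte-free complexes, and raised 1 and lowered 2 in cocultures. Foxo3 rose by 0.60 ± 0.171 in intact complexes and by 0.74 ± 0.171 in cocultures (limma adjusted p = 0.048 and 0.0136), the former not called with the doubtful array regrouped (adjusted p = 0.111). Foxo1 and Klf6 rose in oocyte-free complexes by 0.74 ± 0.133 and 0.88 ± 0.235 (adjusted p = 0.00204 and 0.0254), the latter not called without oocyte-free replicate 3 (0.83, adjusted p = 0.055). Irs2 fell by 0.99 ± 0.218 in intact complexes and by 0.97 ± 0.218 in cocultures (adjusted p = 0.0101 and 0.0114), and Cited2 fell by 0.84 ± 0.203 in oocyte-free complexes and by 1.80 ± 0.203 in cocultures (adjusted p = 0.0139 and 2.16e-05).

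Of the remaining lists, no apoptosome gene and no channel or partner gene was called for estrogen in any culture type. Of the 4 stress genes, Ddit3 fell by 0.56 ± 0.173 in oocyte-free complexes (limma adjusted p = 0.0498) and Trib3 rose by 0.76 ± 0.196 in cocultures (adjusted p = 0.0286). Of the inhibitors of apoptosis, Birc5 rose by 0.95 ± 0.189 in oocyte-free complexes (adjusted p = 0.00416), as did Fbxw7 of the MCL1 turnover genes by 0.58 ± 0.160 (adjusted p = 0.0286), the latter not without oocyte-free replicate 3 (0.45, adjusted p = 0.0791).

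For each tested member the genes with the most similar pattern were found as those with the smallest root mean square difference over the 18 arrays, after each gene was centred on its own mean of the 6 groups. Closest to Bcl2l10 were the granulosa steroid enzyme gene Hsd17b1 (0.479), the splicing factor gene Rbfox1 (0.487) and the transcription factor gene Klf1 (0.520), against a spread of 1.94 for Bcl2l10 itself on the same measure. The group means of Hsd17b1 without estrogen were 13.09 (intact), 8.86 (oocyte-free) and 13.08 (coculture). Closest to Bmf, with its own spread of 1.60, were Gsn (0.450), which encodes the actin-severing protein gelsolin, Itm2a (0.484) and the dynein intermediate chain gene Dync1i1 (0.511). Those of Gsn were 6.60, 9.83 and 6.79 without estrogen and 5.60, 9.01 and 5.93 with it.

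The other members varied less, and their nearest genes were nearer in absolute terms. Bcl2l1, with a spread of 0.449, was followed by Psrc1 (0.159), Klhl22 (0.161) and Ano6 (0.170). Bbc3, with a spread of 0.476, was followed by Fchsd1 (0.180), Rita1 (0.181) and Mvp (0.182). Mcl1 at its brightest probe set, with 0.388, was followed by Sos1 (0.204), Ankfy1 (0.206) and Pxk (0.206). For Bcl2l11 (0.251) they were Glmn, Ppif and Zfp74 (0.146 to 0.162), for Bak1 (0.245) Pabpn1l, 1700009N14Rik and Wnt9b (0.156 to 0.159), and for Bcl2 (0.271) Gpihbp1, Gm12992 and Eif4enif1 (0.167 to 0.177).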

How the data were processed

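RNA of 18 samples of mouse cumulus cells had been amplified and hybridised to Affymetrix arrays, per the labels' protocols. The authors deposited log2 values; the submitters' processing notes name RMA and Expression Console 1.1. RMA's quantile normalization hides a shift of most transcripts in 1 direction and compresses dim values. No detection calls or depths are at hand, and the number of arrays limits the precision. Groups came from the sample titles.

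Of the probe sets, 64 were controls, 34945 carried 1 symbol, 932 several and 9160 none, and 34741 symbols were updated through Entrez identifiers. A gene was represented by its brightest probe set over the 18 arrays. The lmFit and eBayes functions of limma 3.58.1 (R 4.3.3, two-sided tests) were run with 6 group means in 1 fit and 11 contrasts, and Benjamini-Hochberg adjustment over all tested genes. The fit was tested on simulated data. A second fit took all 45037 probe sets that are not controls. The verbs rose and fell are kept for called changes.

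The members and gene lists were chosen with earlier results of these data known, and no list was tested as a set. All 10 members are named, with the 3 tested genes nearest to each and up to 4 called genes of each list and comparison, the largest changes first; other called list genes are in the counts, which are given for removal, addition and estrogen and were also run without the doubted arrays. Alternatives changed the filter, probe set rule, scaling, array series, array weights, samples in the fit, replicate block, group of 1 array, variance model and each array in turn. Leaving out the _x_at probe sets, and 2 doubted arrays together, were chosen after seeing the data.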

Additional observations from a re-analysis of the deposited data

How the results depend on the processing

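The Bcl2l10 and Bmf calls on removal and addition kept their direction and side of the threshold in every alternative run. Without _x_at probe sets Mcl1 turned its sign, to -0.91 on removal (adjusted p = 0.0014) and 0.65 on addition (adjusted p = 0.0176), both without estrogen, because another probe set then stands for the gene. Dim probe sets have no detection call behind them.

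Members called moved as follows, and the cause was not tested. Averaging all probe sets gave 3 in place of 5 on removal with estrogen, 1 in place of 2 for estrogen in intact complexes and 0 in place of 1 in cocultures. The array series as a term gave 3 in place of 6 on addition without estrogen and 2 in place of 1 for estrogen in cocultures, where the first series alone also gave 2. Addition with estrogen gave 5 in place of 3 after a second quantile normalization or centring. Centring also gave 2 for estrogen in cocultures and 1 in place of 0 for the interaction with removal. Array weights gave 1 in place of 0 for cocultures against intact complexes with estrogen, for estrogen in oocyte-free complexes and for each interaction, and 3 in place of 1 for estrogen in cocultures. Without _x_at probe sets, 1 was called in place of 0 for estrogen in oocyte-free complexes and for the interaction with removal. Centring shifted the median of all genes by up to 0.12.

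Leaving out 1 array gave 4 to 5 members on removal in each condition, 4 to 7 and 3 to 5 on addition without and with estrogen, and 0 to 2 for estrogen in cocultures. It left 2 for estrogen in intact complexes and 0 in the other 5 comparisons. Of all genes, 3124 were called in place of 4746 on removal without estrogen with the series as a term. By alternative the calls ranged from 0 to 153 (main 1) and from 1 to 93 (main 0) for cocultures against intact complexes, and for estrogen from 448 to 2215 (main 709) in intact complexes and from 0 to 2683 (main 1181) in oocyte-free complexes, with 1936 (main 570) in cocultures. For the interactions they ranged from 90 to 1325 (main 393) and from 87 to 1557 (main 341). These ranges cover the alternatives that moved a count by over 1.5 times, array-by-array omission aside.

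With the replicate block, 4, 5, 6 and 3 members were called on removal and addition, 2, 0 and 1 for estrogen, and 0 in the remaining comparisons, as without it. A replicate number marks a round of consecutive title numbers, and whether a round shares a day or animals is not labelled. Of 45 pairs of arrays of 1 round, 14 had deviations that correlated over 0.1 (median -0.00416). Of 90 pairs from different rounds, 31 did (median -0.000529). Deviations from a mean of 3 arrays depend on each other, so these values cannot decide whether the arrays of a round belong together.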
